A study of Rattus norvegicus with 16 samples.

Results

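The genes described here are the 9 genes of the MHC class II antigen presentation machinery that the deposited tables list by symbol, out of 45777 gene rows in all. They were chosen by name alone: RT1-Ba, RT1-Bb, RT1-Da and RT1-Db1 for the presenting chains, RT1-DMa, RT1-DMb and RT1-DOb for the peptide editors, Cd74 for the invariant chain and Ciita for the coactivator of the set. They were measured by mRNA sequencing in adrenal glands, heart and pancreas of wild type male Sprague-Dawley rats after repeated intratracheal instillation of benzalkonium chloride (BKC), a quaternary ammonium disinfectant. Rats were given vehicle, 50 µg BKC (BKC50) or 100 µg BKC (BKC100) per instillation, 10 times at intervals of 3 days from an age of 7 weeks, and organs were taken on day 31, at 24 h after the last instillation. Both adrenal glands of an animal were pooled, and the heart piece came from the left ventricle per the labels. Each organ and dose has 2 libraries, with no BKC50 group for pancreas. Some library names repeat the same dose and number in several organs, and no label says whether such libraries share an animal. All libraries were fitted as independent, so p-values here set differences against the spread between these libraries.

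MHC class II molecules display peptides from endocytosed proteins to CD4+ T cells. An alpha and a beta chain assemble in the endoplasmic reticulum with the invariant chain Cd74, which fills the peptide groove and guides the complex to endosomes. There lysosomal proteases trim Cd74 to a short fragment, and the DM molecule exchanges that fragment for a peptide, a step that the DO molecule restrains. The RT1-B and RT1-D molecules of the rat are the counterparts of human HLA-DQ and HLA-DR. Dendritic cells, macrophages and B cells make most class II, and Ciita, which interferon gamma induces in many other cells, switches on the presenting chains, the DM genes and Cd74 together. Tissue macrophages carrying class II are resident in both the adrenal gland and the heart.

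The promoters of these genes were searched for the letters of a shared module. Class II promoters carry a conserved module in which an X box, bound by the RFX factors, precedes a Y box, bound by NF-Y. RefSeq (build GRCr8) gave a promoter, from 250 bases before to 50 bases after the annotated start, for 7 of the 9 genes, RT1-DMb and Ciita not being among them. The letters TGATTGG of the Y box, which include ATTGG, the reverse complement of CCAAT, were present on either strand in 6 of these 7 promoters, against 7.06% of 33469 rat promoters. The letters ACNGATG that end the X box were present in 5 of the 7 promoters, against 10.2% of all promoters. ACNGATG followed within 40 bases by TGATTGG on the same strand was found in 5 of the 7, and in 22 of the 33469 promoters (0.0657%). Of the other 17 promoters with this order, 1 lay on chromosome 20, that of RT1-Db2, a further class II beta chain gene. The 100 bases from -130 to -31 of the start are shown for the 6 genes with a match, because they carry the letters the genes share; capitals mark ACNGATG and TGATTGG, and no marked motifs overlap. All are GRCr8, chromosome 20, read on the strand of the gene.
RT1-Ba, chr20:4576927-4577026, plus strand: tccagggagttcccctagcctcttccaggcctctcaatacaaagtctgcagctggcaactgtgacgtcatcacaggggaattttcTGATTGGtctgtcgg
RT1-Bb, chr20:4604149-4604248, minus strand: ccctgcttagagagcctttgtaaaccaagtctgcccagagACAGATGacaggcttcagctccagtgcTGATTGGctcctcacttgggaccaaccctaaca
RT1-Da, chr20:4515285-4515384, plus strand: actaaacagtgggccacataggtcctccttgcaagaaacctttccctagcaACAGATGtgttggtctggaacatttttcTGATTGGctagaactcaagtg
RT1-Db1, chr20:4560193-4560292, minus strand: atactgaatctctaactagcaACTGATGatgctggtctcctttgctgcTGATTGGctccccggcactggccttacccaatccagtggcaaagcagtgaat
RT1-DMa, chr20:4712366-4712465, minus strand: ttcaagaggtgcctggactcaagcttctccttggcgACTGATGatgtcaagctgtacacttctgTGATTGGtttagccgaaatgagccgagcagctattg
RT1-DOb, chr20:4627554-4627653, minus strand: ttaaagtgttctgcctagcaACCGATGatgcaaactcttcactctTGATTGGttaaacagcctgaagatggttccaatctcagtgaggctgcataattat
In the 5 genes that hold both motifs, 18 to 21 bases separated them. RT1-Ba held TGATTGG alone, and the Cd74 promoter, on chromosome 18, held neither run of letters. A match is a run of letters and not a measured binding site.

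Several libraries stood apart before any class II gene was considered. The table column labelled as the second BKC100 heart equalled the second BKC100 adrenal column in 45777 of 45777 rows and was left out, so 15 libraries remained and the BKC100 heart is a single library. That library had a summed level of 33370 FPKM over 5 atrial markers, against 47.4 to 225 FPKM in the other 4 hearts, and 7162 FPKM over 5 ventricular markers, against 24010 to 36200 FPKM, which goes against its ventricular label. The other organs matched their labels: cortical markers summed to 10640 to 16900 FPKM in adrenal libraries, and medullary markers to 249 to 519 FPKM. Library names come in 2 styles. In the adrenal gland vehicle and BKC50 have one style and BKC100 the other, so whatever the style stands for and the higher dose cannot be told apart in that organ. The share of all FPKM taken by the RNA gene Rn7sl1 was 10.3% and 9.5% in the BKC100 adrenals, against 27.0% to 35.9% in the other 4 adrenals. In the heart the first library of vehicle and of BKC50 has the first style, and the second libraries and BKC100 have the second, while all pancreas libraries have the second.

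Class II transcripts were abundant in the adrenal gland and the heart and scarce in the pancreas. Values were read as FPKM, a unit inferred from their range and sums because the headers name none. FPKM divides by transcript length, so on that reading levels of different genes can be set side by side. Cd74 was the most abundant of the 9 genes in all 15 libraries, from 3.54 FPKM in a vehicle pancreas to 216 FPKM in a vehicle heart. RT1-Da, the alpha chain of the RT1-D molecule, was second in all 15, from 1.31 FPKM in a vehicle pancreas to 141 FPKM in a BKC50 adrenal. Ciita, whose protein acts on the promoters and is needed in small amounts, stayed under 1 FPKM in all 15 libraries, from 0.00844 to 0.930 FPKM. RT1-DOb, the beta chain of the DO molecule and a product mainly of B cells and some dendritic cells, reached 2.72 FPKM at most, in a vehicle adrenal, and was listed at 0 in 2 pancreas libraries. B cell markers were low as well: the 8 of them summed to 0.757 to 2.07 FPKM in adrenal libraries, with 2 to 4 of the 8 at 0 in each. RT1-DOb itself had 0.822 to 2.72 FPKM there.

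**Figure D1:**
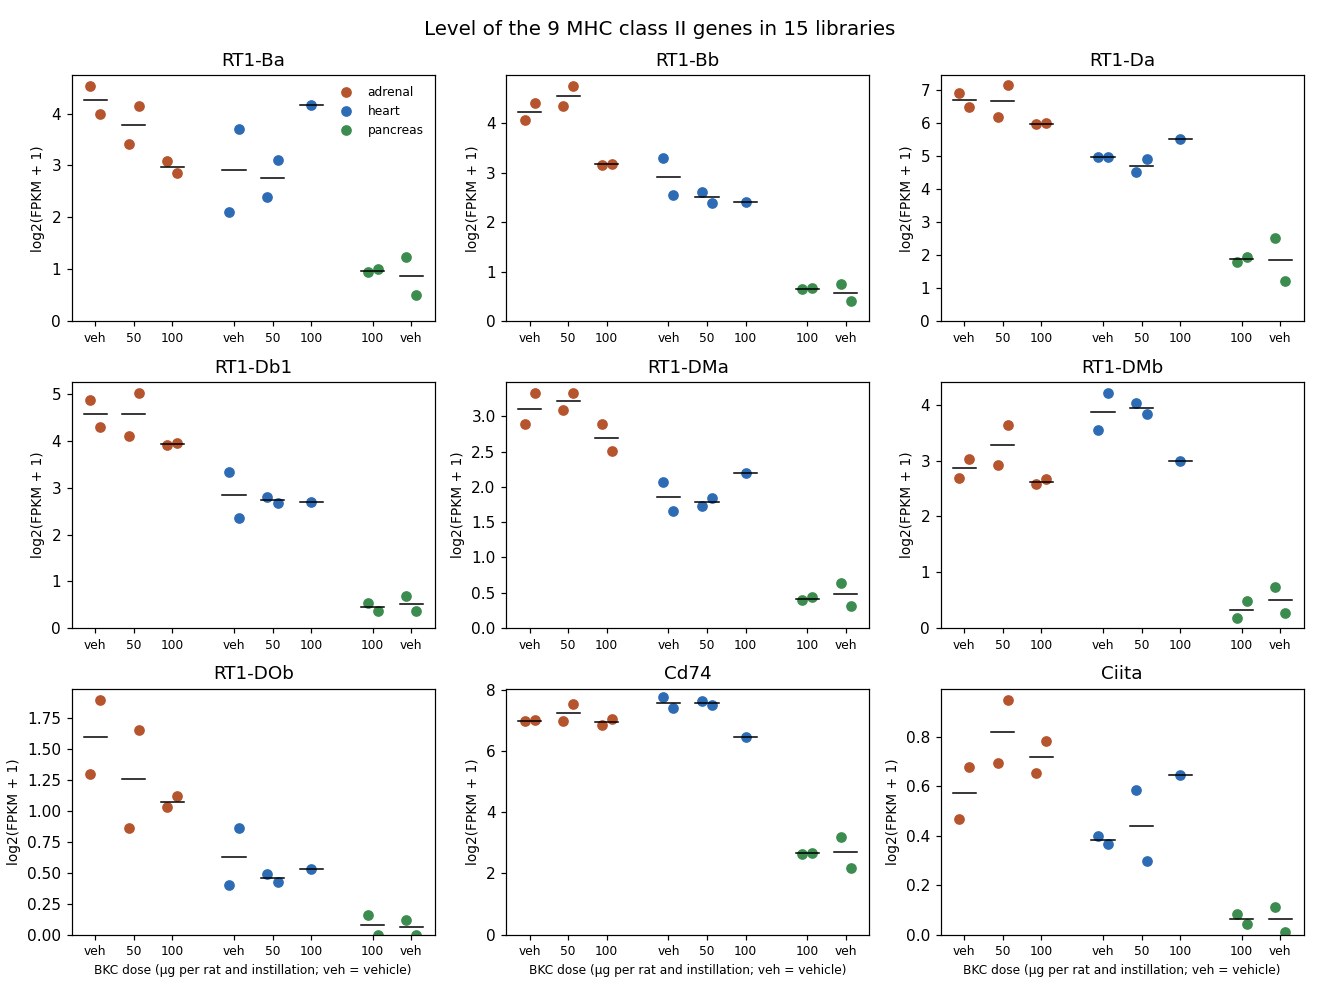
Level of each of the 9 class II genes in log2(FPKM + 1) on the vertical axis, by BKC dose in µg on the horizontal axis, for adrenal gland, heart and pancreas. Each point is 1 library and each black line the mean of its group. The pancreas points sit lowest for every gene. The BKC100 adrenal points lie under both vehicle points for every RT1 gene, but not for Cd74 or Ciita.

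Among vehicle libraries the organs held different mixtures of the class II genes. Cd74 had 3.54 and 8.21 FPKM in pancreas, against 125 and 127 FPKM in adrenal glands. RT1-Da had 1.31 and 4.73 FPKM in pancreas, against 88.2 and 118 FPKM in adrenal glands. A limma fit on log2(FPKM + 1) over all 15 libraries tested 7 of the 9 genes, RT1-DOb and Ciita falling under the filter of a mean of 1 FPKM. All 7 were lower in vehicle pancreas than in vehicle adrenal, where 89.0% of the 12543 genes tested were called lower (adjusted p under 0.05). The log2 changes ran from -4.82 for RT1-Da (SE 0.38) to -2.36 for RT1-DMb (SE 0.28), against a median of -2.38 over all genes tested. The added 1 narrows the gap of genes under 1 FPKM in pancreas, such as RT1-Db1, which averaged 0.444 ± 0.221 FPKM in pancreas and 23.5 ± 6.76 FPKM in adrenal glands (SD, n = 2 each), so these changes give no order among the genes. The 7 genes were likewise all higher in vehicle heart than in vehicle pancreas, where 85.1% of all genes were called higher, from RT1-DMa (log2 change 1.38, SE 0.24) to Cd74 (log2 change 4.88, SE 0.30), with a median over all genes of 1.82. Median-ratio scaling took most of that general shift away (medians over all genes -0.27 and 0.24). Under it 5 of the 7 genes were still called in each comparison, RT1-Ba and RT1-DMb no longer being lower in pancreas than in adrenal (limma adjusted p = 0.0662 and 0.166), and RT1-Ba and RT1-DMa no longer higher in heart than in pancreas (limma adjusted p = 0.528 and 0.665).

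The adrenal gland and the heart differed gene by gene. RT1-Da had 88.2 and 118 FPKM in vehicle adrenals, against 30.1 and 30.4 FPKM in vehicle hearts, and RT1-Db1, its beta chain partner, had 18.7 and 28.3 FPKM, against 4.12 and 9.13 FPKM. Both genes were higher in the adrenal gland with no overlap between the organs (log2 changes 1.72, SE 0.38, and 1.74, SE 0.33; limma adjusted p = 0.00148 and 0.000421). RT1-Bb (log2 change 1.31, SE 0.26), RT1-DMa (log2 change 1.25, SE 0.24) and RT1-Ba (log2 change 1.36, SE 0.48) were also called higher in the adrenal gland, so 5 of 7 genes were, where 46.6% of all genes tested were. RT1-DMb, the beta chain of the DM peptide editor, went the other way, with 5.48 and 7.15 FPKM in vehicle adrenals and 10.7 and 17.5 FPKM in vehicle hearts (log2 change -1.02, SE 0.28; limma adjusted p = 0.0057), where 17.6% of all genes were called lower. Cd74 had 125 and 127 FPKM in vehicle adrenals and 167 and 216 FPKM in vehicle hearts, a difference that was not called as deposited (log2 change -0.59, SE 0.30; limma adjusted p = 0.0964) and was called lower in the adrenal gland after median-ratio scaling (log2 change -1.19; limma adjusted p = 0.00028). The RT1-Ba call was lost under that scaling (log2 change 0.74; limma adjusted p = 0.223), without vehicle adrenal 1 (adjusted p = 0.151) and without vehicle heart 1 (adjusted p = 0.233), and the RT1-DMb call was lost without vehicle adrenal 1 (limma adjusted p = 0.0546) or vehicle heart 2 (limma adjusted p = 0.0797). Both vehicle adrenals carry the first naming style, and the vehicle hearts 1 of each. The 12 macrophage markers summed to 177 and 185 FPKM in vehicle adrenals and to 143 and 109 FPKM in vehicle hearts. Of the 12, 3 were called higher in the adrenal gland and 1 lower, where 46.6% and 17.6% of all genes were. Their median log2 change was 0.28, against 0.53 over all genes. The 12 dendritic cell markers summed to 16.7 and 19.2 FPKM in vehicle adrenals and to 22.7 and 19.1 FPKM in vehicle hearts, and the part of either cell type in the class II levels was not tested. In such bulk tissue, fewer cells of a type and less RNA per cell cannot be told apart.

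Ratios between the genes within a library do not depend on how libraries are scaled. Cd74 transcripts stood at 1.05 and 1.44 per RT1-Da transcript in vehicle adrenals and at 5.55 and 7.10 in vehicle hearts, and the BKC50 hearts had 6.21 and 9.16. The presenting chains were the smaller part of class II in these 4 hearts: RT1-Ba, RT1-Bb, RT1-Da and RT1-Db1 made up 14.6% to 21.4% of the summed FPKM of the 9 genes there, against 49.2% and 57.1% in vehicle adrenals and 37.0% and 43.4% in vehicle pancreas. The BKC100 heart with the atrial markers had 1.97 Cd74 per RT1-Da and a presenting chain share of 41.8%, outside the range of the other hearts. The chains of DM differed in the same organ: the ratio of RT1-DMb to RT1-DMa was 3.37 to 8.16 in the 4 ventricular hearts, 1.94 in the BKC100 heart, 0.775 to 1.25 in the 6 adrenals and 0.406 to 1.18 in the 4 pancreas libraries.

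The alpha and beta chains of RT1-D kept a near constant proportion in the adrenal gland. RT1-Da stood at 4.19 to 4.71 times RT1-Db1 in all 6 adrenal libraries, while in hearts the ratio was 3.33 and 3.61 in the 2 libraries of the first naming style and 5.37 to 8.07 in the 3 of the second. The chains of RT1-B varied more. RT1-Ba to RT1-Bb was 0.377 and 0.828 in the hearts of the first naming style and 1.81 to 3.89 in those of the second, so the alpha chain was the less abundant in one style and the more abundant in the other. In the adrenal gland that ratio was 1.42 and 0.743 in vehicle libraries, 0.498 and 0.643 at BKC50 and 0.939 and 0.768 at BKC100, so BKC50 lay under both other groups, which overlapped. The part of the naming style in these ratios was not tested. RT1-Db1 has a close relative, RT1-Db2, listed at 0 in 12 of the 15 libraries, and reads that fit both could have been divided between them.

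**Figure D2:**
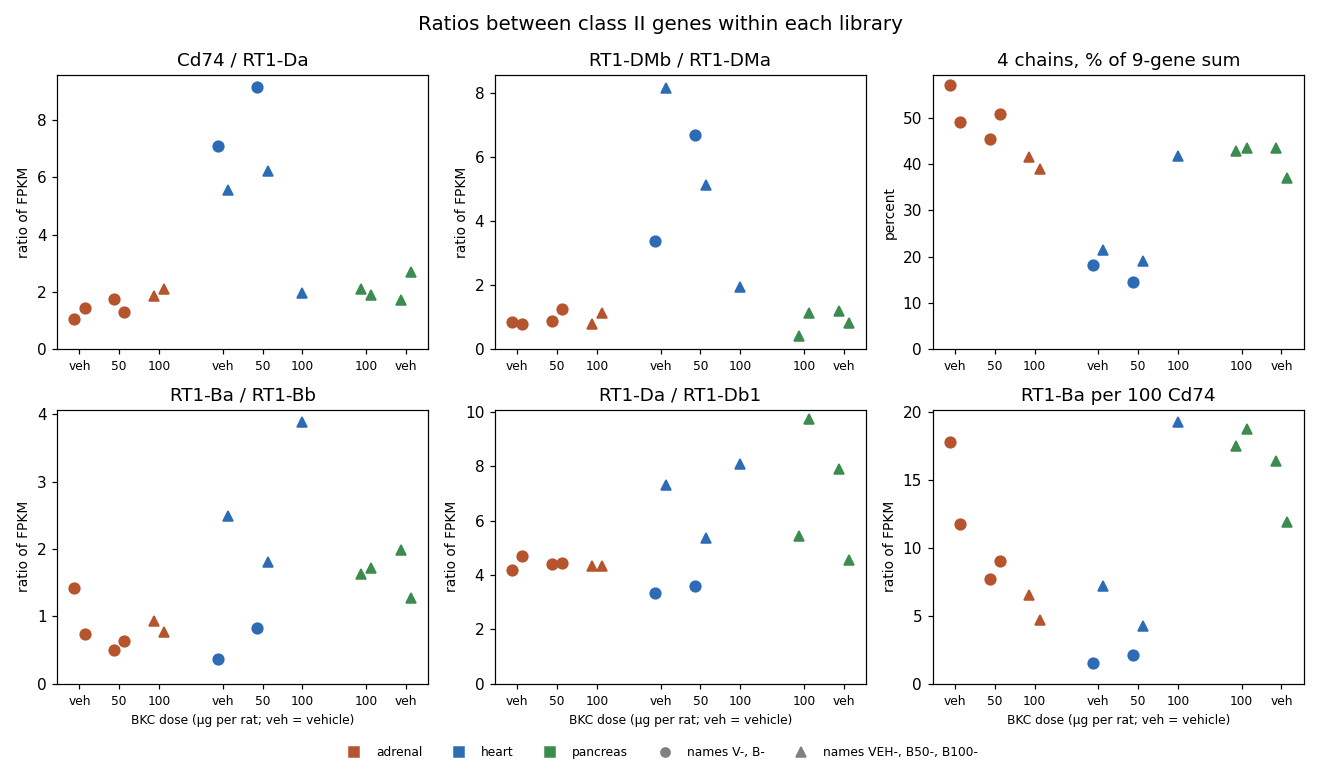
Ratios of FPKM between class II genes within each library (vertical axes; the top right panel gives a percent) by BKC dose in µg and organ. Each point is 1 library and its shape gives the style of the library name; the hearts other than BKC100 stand apart in Cd74 per RT1-Da, and RT1-Ba per 100 Cd74 is lowest among adrenals in the BKC100 libraries.

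In the adrenal gland, RT1-Ba and RT1-Bb, the alpha and beta chain of RT1-B, fell at BKC100, a dose confounded there with the naming style. None of the 8 genes tested was called higher at either dose, and 4 of them had a positive log2 change at BKC50. RT1-Ba had 22.2 and 14.9 FPKM in vehicle adrenals, 9.61 and 16.6 FPKM at BKC50 and 7.46 and 6.21 FPKM at BKC100. RT1-Bb had 15.6 and 20.1 FPKM in vehicle adrenals, 19.3 and 25.9 FPKM at BKC50 and 7.95 and 8.09 FPKM at BKC100. The BKC100 libraries were the lowest of the 6 for both genes and did not overlap the other groups. Against vehicle, RT1-Ba fell by 1.30 on the log2 scale (SE 0.30) and RT1-Bb by 1.05 (SE 0.24; limma adjusted p = 0.0226 for each), so 2 of the 8 genes tested were called lower, where 7.98% of the 12578 genes tested were. Ciita was under the filter.

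The other chain genes were lower at BKC100 without passing the test. RT1-Da had 118 and 88.2 FPKM in vehicle adrenals, 71.7 and 141 FPKM at BKC50 and 61.2 and 62.9 FPKM at BKC100. RT1-Db1 had 28.3 and 18.7 FPKM in vehicle adrenals, 16.3 and 31.8 FPKM at BKC50 and 14.2 and 14.5 FPKM at BKC100. For both genes the BKC100 libraries lay under all 4 others, and the BKC50 libraries enclosed the vehicle range. Against vehicle the log2 change was -0.71 (SE 0.30) for RT1-Da and -0.65 (SE 0.31) for RT1-Db1 (limma adjusted p = 0.149 and 0.193). Neither gene was called under median-ratio scaling, after quantile normalization or when protein-coding sums were made equal. RT1-Da was called when only the 2 groups compared entered the fit (limma adjusted p = 0.0432), and likewise without BKC50 adrenal 1 (adjusted p = 0.0417) or BKC50 adrenal 2 (adjusted p = 0.0426).

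Neither the peptide editors nor the invariant chain were called at BKC100. RT1-DMa had 6.45 and 9.03 FPKM in vehicle adrenals, 7.56 and 9.12 FPKM at BKC50 and 6.39 and 4.72 FPKM at BKC100, with a log2 change at BKC100 of -0.41 (SE 0.28). RT1-DMb had 5.48 and 7.15 FPKM in vehicle adrenals, 6.55 and 11.4 FPKM at BKC50 and 4.96 and 5.39 FPKM at BKC100, with a log2 change of -0.24 (SE 0.30). RT1-DOb, the restraining DO chain, had 1.46 and 2.72 FPKM in vehicle adrenals, 0.822 and 2.14 FPKM at BKC50 and 1.05 and 1.17 FPKM at BKC100, with a log2 change of -0.52 (SE 0.34) that the added 1 narrows. The BKC100 libraries of all 3 were each under both vehicle libraries, as were those of 47.5% of all genes tested. The gap was small for RT1-DMa (6.39 against 6.45 FPKM) and RT1-DMb (5.39 against 5.48 FPKM). Cd74 had 125 and 127 FPKM in vehicle adrenals, 125 and 184 FPKM at BKC50 and 114 and 132 FPKM at BKC100, and its groups overlapped (log2 change -0.03, SE 0.22; limma adjusted p = 0.933). Ciita, not tested, had 0.384 and 0.602 FPKM in vehicle adrenals, 0.616 and 0.930 FPKM at BKC50 and 0.572 and 0.722 FPKM at BKC100, so its BKC50 libraries lay above both vehicle libraries and it was not lower in the libraries where RT1-Ba and RT1-Bb were.

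The 8 tested genes all had a negative log2 change at BKC100, where 71.6% of all genes did, and 7 of the 8 did not overlap vehicle on the lower side, where 47.5% of all genes did so. Their median log2 change was -0.58, against -0.28 over all genes tested. The whole adrenal table leaned downward as deposited: 1004 genes were called lower and 226 higher at BKC100, while median-ratio scaling gave 115 lower and 215 higher. Under that scaling RT1-Ba (log2 change -1.00; limma adjusted p = 0.0878) and RT1-Bb (log2 change -0.75; limma adjusted p = 0.0819) were no longer called, and the signs of RT1-DMb and Cd74 turned to 0.04 and 0.29. With no filter on low values, neither gene was called (limma adjusted p = 0.179 for RT1-Ba and 0.154 for RT1-Bb). The calls also rested on single libraries: without vehicle adrenal 1 neither gene was called (limma adjusted p = 0.148 for RT1-Ba and 0.0532 for RT1-Bb), and without vehicle adrenal 2 or BKC100 adrenal 1 only RT1-Ba was (limma adjusted p = 0.0148 and 0.0439).

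**Figure D3:**
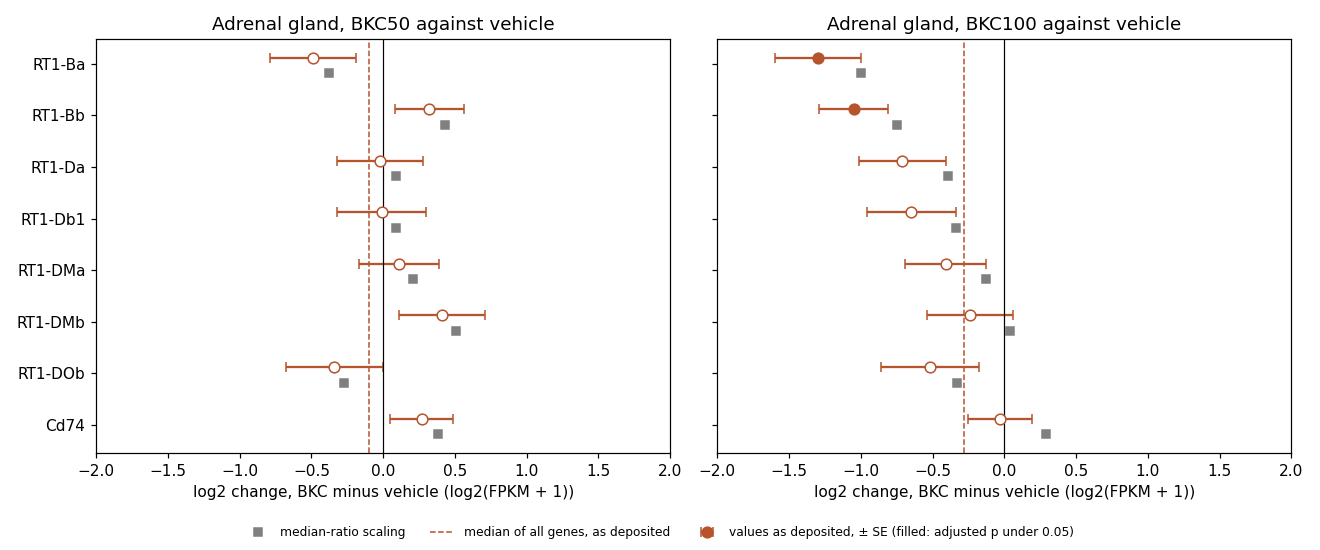
Log2 change of the 8 tested class II genes in the adrenal gland at BKC50 (left) and BKC100 (right) against vehicle, on the log2(FPKM + 1) scale. Circles with bars are the values as deposited with their SE, filled where the limma adjusted p was under 0.05, grey squares the values after median-ratio scaling, and the dashed line the median of all genes; RT1-Ba and RT1-Bb lie lowest at BKC100 and Cd74 near 0.

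Set against Cd74 of the same library, which no scaling between libraries can alter, the RT1-B chains were also lowest at BKC100. RT1-Ba stood at 17.8 and 11.8 per 100 Cd74 in vehicle adrenals, 7.69 and 9.03 at BKC50 and 6.53 and 4.69 at BKC100, so both BKC groups lay under vehicle. RT1-Bb stood at 12.5 and 15.8 per 100 Cd74 in vehicle adrenals, 15.4 and 14.0 at BKC50 and 6.95 and 6.11 at BKC100, so BKC100 alone stood apart. RT1-Da stood at 94.9 and 69.4 per 100 Cd74 in vehicle adrenals, 57.4 and 76.5 at BKC50 and 53.6 and 47.5 at BKC100. The 4 presenting chains together made up 57.1% and 49.2% of the 9-gene sum in vehicle adrenals, 45.4% and 50.9% at BKC50 and 41.6% and 38.9% at BKC100. Cd74 itself had a log2 change of -0.03 at BKC100 against vehicle, beside a median of -0.28 over all genes tested. A gene at that median would thus also be lower per Cd74. These ratios are given without a test.

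The step between the doses was clearest for RT1-Bb, which at BKC100 was lower than at BKC50 (log2 change -1.37, SE 0.24; limma adjusted p = 0.0173). It was the 1 of 8 genes called lower there, where 2.34% of all genes tested were. RT1-Ba (log2 change -0.81, SE 0.30; limma adjusted p = 0.162), RT1-Da (-0.69, SE 0.30), RT1-DMb (-0.65, SE 0.30), RT1-Db1 (-0.63, SE 0.31) and RT1-DMa (-0.52, SE 0.28) were also without overlap, which made 6 of 8, where 34.9% of all genes were apart on the lower side. The median of the 8 genes was -0.64, against -0.16 over all genes. The RT1-Bb call was lost under median-ratio scaling (log2 change -1.18; limma adjusted p = 0.0566) and without BKC50 adrenal 2 (limma adjusted p = 0.114). BKC50 against vehicle gave 0 of 8 genes called, where limma called 0.0318% of all genes (4 genes, with 1424 at an unadjusted p under 0.05), and 0 of 8 apart on the lower side, where 29.6% of all genes were. The log2 changes there ran from -0.49 for RT1-Ba (SE 0.30) to 0.41 for RT1-DMb (SE 0.30), with a median of 0.05, against -0.10 over all genes.

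Summed markers of macrophages and of leukocytes at large, cells that can carry class II, were also lower in the BKC100 adrenals. The 12 macrophage markers summed to 177 and 185 FPKM in vehicle adrenals, 149 and 227 FPKM at BKC50 and 98.1 and 136 FPKM at BKC100; none of the 12 was called, 10 had a negative log2 change, where 71.6% of all genes did, and their median was -0.38, beside -0.28 over all genes. Under median-ratio scaling, which set the median of all genes to 0, 8 of the 12 were negative, with a median of -0.12. The 4 pan-leukocyte markers summed to 21.3 and 19.5 FPKM in vehicle adrenals, 17.1 and 20.9 FPKM at BKC50 and 11.4 and 14.6 FPKM at BKC100. Their median log2 change at BKC100 was -0.42, beside -0.28 over all genes, and all 4 were negative. Under median-ratio scaling it was -0.17, with 3 of the 4 negative. Of the 4, 1 was called lower, where 7.98% of all genes were. This was Coro1a, an actin regulator of leukocytes (log2 change -0.95, SE 0.27, limma adjusted p = 0.0446). The Coro1a call was lost under median-ratio scaling (limma adjusted p = 0.106), quantile normalization (0.0899) and equal protein-coding sums (0.144), with no filter on low values (0.164) and without any 1 of the 5 libraries other than BKC100 adrenal 2 (0.0536 to 0.279). The 12 dendritic cell markers summed to 16.7 and 19.2 FPKM in vehicle adrenals, 18.1 and 24.1 FPKM at BKC50 and 17.5 and 18.8 FPKM at BKC100, with 1 to 4 of the 12 at 0, among them Cd209a in all 6 libraries. Clec10a made up the largest part of that sum, with 7.22 and 7.89 FPKM in vehicle adrenals, 9.16 and 10.3 FPKM at BKC50 and 8.66 and 8.70 FPKM at BKC100, while Fscn1, with 1.64 and 1.87, 2.17 and 2.77, and 1.23 and 1.14 FPKM in the same order, was lowest at BKC100. None of the 4 dendritic cell markers tested was called, and 2 of them had a negative log2 change. Per 100 FPKM of macrophage markers, Cd74 stood at 70.5 and 68.6 in vehicle adrenals, 83.7 and 81.2 at BKC50 and 117 and 97.3 at BKC100, and RT1-Da at 66.9 and 47.6, 48.0 and 62.1, and 62.4 and 46.2 in the same order. RT1-Bb stood at 8.83 and 10.9 in vehicle adrenals, 12.9 and 11.4 at BKC50 and 8.10 and 5.94 at BKC100 on that scale, and RT1-Ba at 12.6 and 8.06, 6.44 and 7.34, and 7.61 and 4.57. The part of these cells in the class II levels was not tested.

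Genes that act with class II were lower alongside RT1-B in the BKC100 adrenals. Of 8 genes for peptide generation in lysosomes, 5 fell at BKC100, where 7.98% of all genes were called lower, and all 8 had a negative log2 change, where 71.6% of all genes did. Their median was -0.79, beside -0.28 over all genes. Lgmn, the asparagine endopeptidase of antigen and Cd74 processing, had 53.7 and 51.3 FPKM in vehicle adrenals, 35.9 and 44.8 FPKM at BKC50 and 20.4 and 27.5 FPKM at BKC100. It fell by 1.12 on the log2 scale at BKC100 (SE 0.22; limma adjusted p = 0.014). Ifi30, the thiol reductase that opens disulfide bonds of antigens, had 47.5 and 40.3 FPKM in vehicle adrenals, 39.7 and 44.5 FPKM at BKC50 and 20.9 and 24.2 FPKM at BKC100, and fell by 0.93 (SE 0.21; limma adjusted p = 0.0219). The cathepsins Ctsz (log2 change -1.00, SE 0.22), Ctsl (-0.80, SE 0.23) and Ctsh (-0.78, SE 0.20) fell as well, while Ctss, the main protease of Cd74 in antigen-presenting cells, had 61.6 and 43.5 FPKM in vehicle adrenals, 33.8 and 57.6 FPKM at BKC50 and 32.0 and 44.0 FPKM at BKC100 and was not called. After median-ratio scaling 1 of the 8, Lgmn, remained called (log2 change -0.80; limma adjusted p = 0.0496) and 7 of the 8 had a negative sign. After quantile normalization and at equal protein-coding sums 0 of the 8 were called, and 7 of the 8 had a negative sign in each. Leaving out 1 library ended each of the 5 calls, those of Lgmn and Ifi30 without vehicle adrenal 1 (limma adjusted p = 0.0613 and 0.143) or BKC100 adrenal 1 (limma adjusted p = 0.0871 and 0.116). Ctsz and Ctsh lost theirs without either vehicle adrenal or without BKC100 adrenal 1, and Ctsl without any 1 of the 4 libraries. Against BKC50, Ctsz (log2 change -1.05, SE 0.22; limma adjusted p = 0.0273) and Ifi30 (log2 change -0.87, SE 0.21; limma adjusted p = 0.0472) fell, 2 of the 8, where 2.34% of all genes were called lower. Both were lost under median-ratio scaling (limma adjusted p = 0.0718 and 0.104), without BKC50 adrenal 2 (0.171 and 0.241) and without BKC100 adrenal 1 (0.0840 and 0.207), and Ifi30 also without BKC50 adrenal 1 (0.0856).

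Among the factors of the X and Y boxes, 1 of 7 fell at BKC100, where 7.98% of all genes did. Rfxank, a subunit of the RFX complex, had 11.3 and 12.9 FPKM in vehicle adrenals, 11.4 and 9.82 FPKM at BKC50 and 6.13 and 5.35 FPKM at BKC100 (log2 change -0.96, SE 0.25; limma adjusted p = 0.0325). Its partners Rfx5 and Rfxap and the NF-Y subunits Nfya, Nfyb and Nfyc were not called, and the median of the 7 was -0.18, beside -0.28 over all genes. On the interferon gamma route to Ciita, 11 of 14 genes were tested and 2 fell at BKC100, with a median of -0.76. Irf1, a transcription factor on that route, had 48.3 and 39.5 FPKM in vehicle adrenals, 20.1 and 37.0 FPKM at BKC50 and 16.4 and 20.1 FPKM at BKC100 (log2 change -1.22, SE 0.28; limma adjusted p = 0.0243). Cxcl10, an interferon-induced chemokine, fell at both doses, with log2 changes of -2.01 at BKC50 (SE 0.29; limma adjusted p = 0.0462) and -1.82 at BKC100 (SE 0.29; limma adjusted p = 0.00656). Ifng itself was listed at 0 in all 6 adrenal libraries. Under median-ratio scaling the Rfxank and Irf1 calls and the Cxcl10 call at BKC50 were lost (limma adjusted p = 0.136, 0.0768 and 0.145), and that of Cxcl10 at BKC100 was kept (log2 change -1.53; limma adjusted p = 0.0246), while with no filter on low values it was lost too (limma adjusted p = 0.146). Without vehicle adrenal 1 the Rfxank, Irf1 and Cxcl10 BKC50 calls were lost too (limma adjusted p = 0.129, 0.115 and 0.124). The Rfxank call was also lost without vehicle adrenal 2 (limma adjusted p = 0.142), the Rfxank and Irf1 calls without BKC100 adrenal 1 (limma adjusted p = 0.0742 and 0.108) and the Cxcl10 BKC50 call without BKC50 adrenal 1 (limma adjusted p = 0.125).

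The class I pathway, which displays peptides of the cell's own proteins, was lower in the same libraries. All 14 of its genes had a negative log2 change at BKC100, where 71.6% of all genes did, with a median of -0.68, beside -0.28 over all genes. Of the 14, 2 fell, where 7.98% of all genes did: RT1-A1, a classical class I heavy chain (log2 change -1.12, SE 0.21; limma adjusted p = 0.011), and Psmb8, a subunit of the immunoproteasome (log2 change -0.91, SE 0.22; limma adjusted p = 0.028). Against BKC50, 5 of the 14 fell, where 2.34% of all genes did, with a median of -0.59, beside -0.16 over all genes. RT1-CE10, a further class I gene, had a log2 change of -2.04 (SE 0.30; limma adjusted p = 0.00938), RT1-A1 of -1.16 (SE 0.21; 0.0174), Tapbp, the tapasin of the class I loading complex, of -1.00 (SE 0.21; 0.0306) and RT1-A2 of -1.05 (SE 0.23; 0.0317), and Psmb8 was the fifth (-0.99, SE 0.22). Of 4 tested genes for costimulation and class II turnover, Cd40, the receptor through which T cells license antigen-presenting cells, fell (log2 change -1.42, SE 0.33; limma adjusted p = 0.0226). The costimulatory ligand Cd86 had 1.05 and 0.713 FPKM at BKC100, against 1.67 and 1.20 FPKM in vehicle adrenals, and was not called. None of the class I genes nor Cd40 was called under median-ratio scaling, where 13 of the 14 class I genes had a negative sign. RT1-A1 alone stayed called against vehicle after quantile normalization and at equal protein-coding sums. Against BKC50, RT1-CE10 alone stayed called at equal protein-coding sums, and none did after quantile normalization. The Psmb8 call and the Cd40 call at BKC100 against vehicle were also lost without vehicle adrenal 2 (limma adjusted p = 0.0969 and 0.124), the Psmb8 call without BKC100 adrenal 1 (limma adjusted p = 0.142), and all 5 class I calls against BKC50 without BKC50 adrenal 2 (limma adjusted p = 0.0547 to 0.232). Of those 5, the RT1-A2 call was also lost without BKC50 adrenal 1 (0.0759), and all but that of RT1-CE10 without BKC100 adrenal 1 (0.0563 to 0.180). With no filter on low values, every call named here for these lists was lost, with limma adjusted p from 0.137 (RT1-A1) to 0.214 (Ctsl) at BKC100 against vehicle and from 0.196 (RT1-A1) to 0.266 (Psmb8) against BKC50, and of 0.533 for Cxcl10 at BKC50.

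**Figure D4:**
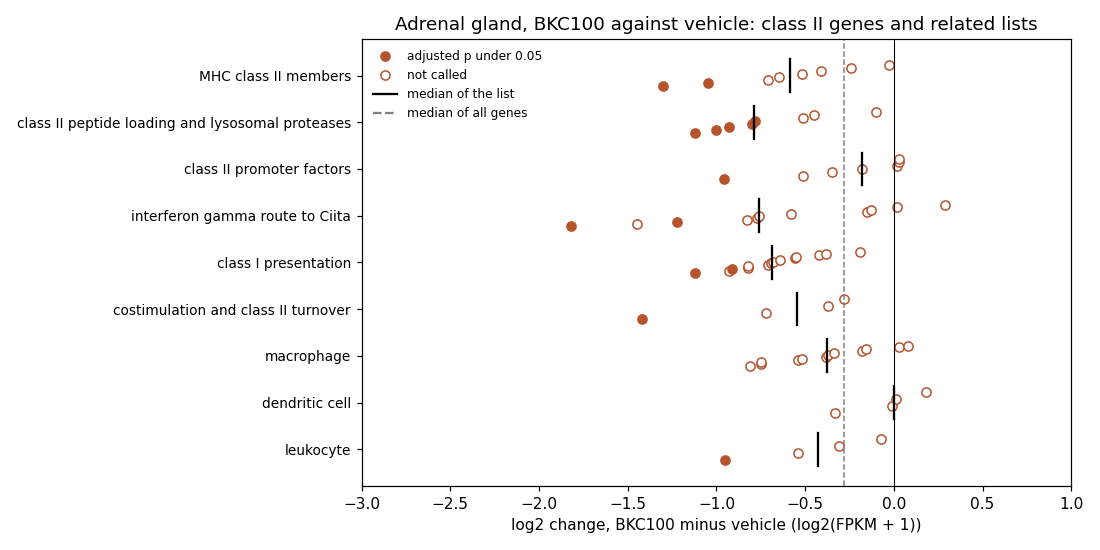
Log2 change in the adrenal gland at BKC100 against vehicle (log2(FPKM + 1) scale, as deposited) for each tested gene of the class II set, of 5 related gene lists and of 3 marker lists. Each circle is 1 gene, filled where the limma adjusted p was under 0.05, the short black lines are list medians and the dashed line the median of all genes; the lysosomal list has the lowest median of the lists shown.

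In the heart, no class II gene was called at BKC50. RT1-Da had 21.7 and 28.9 FPKM at BKC50, against 30.4 and 30.1 FPKM in vehicle hearts, and was the only one of 7 tested genes whose groups did not overlap (log2 change -0.26, SE 0.21), where 6.59% of all genes were apart on the lower side. Cd74 had 199 and 179.7 FPKM at BKC50, against 216 and 167 FPKM in vehicle hearts (log2 change -0.01, SE 0.23). RT1-Ba had 4.25 and 7.64 FPKM at BKC50, against 3.30 and 12.0 FPKM in vehicle hearts, so the vehicle libraries enclosed the BKC50 ones. The log2 changes of the other tested genes were -0.42 for RT1-Bb (SE 0.31), -0.11 for RT1-Db1 (SE 0.37), -0.07 for RT1-DMa (SE 0.21) and 0.05 for RT1-DMb (SE 0.28). Below the filter, RT1-DOb had 0.409 and 0.345 FPKM at BKC50, against 0.321 and 0.817 FPKM in vehicle hearts, and Ciita had 0.4998 and 0.229 FPKM, against 0.3201 and 0.2902 FPKM. limma called 0 of the 12099 genes tested there, with 45 at an unadjusted p under 0.05. The macrophage markers summed to 136 and 151 FPKM at BKC50, against 143 and 109 FPKM in vehicle hearts.

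The single BKC100 heart, with its atrial markers, cannot separate the dose from the piece of heart sampled. It held 87.5 FPKM of Cd74, against 216 and 167 FPKM in vehicle hearts (log2 change -1.11, SE 0.28; limma adjusted p = 0.174), and 6.93 FPKM of RT1-DMb, against 10.7 and 17.5 FPKM (log2 change -0.89, SE 0.34; limma adjusted p = 0.298). It held more of the alpha chains, with 44.5 FPKM of RT1-Da, against 30.4 and 30.1 FPKM in vehicle hearts, and 16.9 FPKM of RT1-Ba, against 3.30 and 12.0 FPKM. It had 4.34 FPKM of RT1-Bb, against 8.77 and 4.82 FPKM, 5.52 FPKM of RT1-Db1, against 9.13 and 4.12 FPKM, and 3.57 FPKM of RT1-DMa, against 3.18 and 2.15 FPKM. RT1-DOb, at 0.442 FPKM, and Ciita, at 0.563 FPKM, were under the filter. The lone library lay outside the vehicle range for 6 of the 7 tested genes, 3 higher and 3 lower, where 37.7% of all genes were apart higher and 37.3% lower, and 0 of 7 were called, where 0.810% of all genes were. With the naming style as a term, a fit chosen after the data were seen, the log2 change of Cd74 was -0.98. That fit takes a mean per dose and the style from few hearts, with a lone BKC100 library. Little spread is left to test against, so calls from it are not given. Cxcl10 had 11.5 FPKM in that library, against 0.596 and 0.526 FPKM in vehicle hearts (log2 change 3.00, SE 0.23; limma adjusted p = 0.0311). Its macrophage markers summed to 179.7 FPKM, against 143 and 109 FPKM in vehicle hearts, its pan-leukocyte markers to 29.4 FPKM, against 20.2 and 14.7 FPKM, and its 5 endothelial markers to 192 FPKM, against 118 and 119.7 FPKM. Against BKC50 hearts the same library gave 0 of 7 genes called, where 0.876% of all genes were, and 2 of 7 (Cd74 and RT1-Da) with the naming style as a term, where 30.3% of all genes (3668) were. Its log2 changes there were -1.10 for Cd74 (SE 0.28), -0.95 for RT1-DMb (SE 0.34), 0.81 for RT1-Da (SE 0.26) and 1.41 for RT1-Ba (SE 0.74), with -0.08 for RT1-Bb (SE 0.37), -0.04 for RT1-Db1 (SE 0.45) and 0.40 for RT1-DMa (SE 0.26).

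In the pancreas, 2 of the 9 genes passed the filter and neither was called at BKC100, where 0.392% of the 5610 genes tested were. Cd74 had 5.28 and 5.42 FPKM at BKC100, against 8.21 and 3.54 FPKM in vehicle pancreas (log2 change -0.03, SE 0.34). RT1-Da had 2.50 and 2.89 FPKM at BKC100, against 4.73 and 1.31 FPKM in vehicle pancreas (log2 change 0.02, SE 0.31). Under the filter, RT1-Ba had 0.923 and 1.02 FPKM at BKC100, against 1.35 and 0.421 FPKM in vehicle pancreas, and RT1-Bb, RT1-Db1, RT1-DMa, RT1-DMb, RT1-DOb and Ciita were each under 1 FPKM in all 4 libraries with overlapping groups. For Cd74 and RT1-Da the BKC100 libraries lay between the vehicle libraries, as did their 9-gene sums of 10.3 and 11.0 FPKM, against 17.0 and 6.35 FPKM. Acinar enzyme markers summed to 82370 and 83940 FPKM at BKC100, against 105600 and 71310 FPKM in vehicle pancreas, beside macrophage markers of 21.0 and 13.6 FPKM, against 16.5 and 10.3 FPKM.

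Whether the adrenal change at BKC100 differed from that in the pancreas was tested as an interaction in the fit over all organs. RT1-Bb had the difference with the smallest p of the 7 genes tested (-1.13 on the log2 scale, adrenal minus pancreas, SE 0.36; limma adjusted p = 0.174), and RT1-Ba followed (-1.41, SE 0.68; limma adjusted p = 0.338). None of the 7 was called, where 0.542% of all genes were, so a difference between the organs was not shown for any class II gene. At BKC50, adrenal minus heart, none of the 7 was called either, where 0.0319% of all genes were, and RT1-Bb had a difference of 0.74 (SE 0.36; limma adjusted p = 0.794).

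Genes whose levels ran most like class II were ranked by Pearson correlation over the 15 libraries, after centring each gene within its organ, with the mean of RT1-Ba, RT1-Bb, RT1-Da, RT1-Db1 and Cd74. Of 5020 genes expressed in all 3 organs, the 10 highest were Hsbp1 (r = 0.938), Tbca (0.935), Snx2 (0.923), Gtf2h5, Tmem179b and Cd9 (0.918 each), Inpp5k (0.912), Hid1 (0.911), Dync1i2 (0.910) and Cwc15 (0.907). The libraries share depth and composition, and the median correlation of all 5020 genes was 0.417. After median-ratio scaling, a setting chosen after the data were seen, that median was -0.017 and the 10 highest, with 7 of the same genes, ran from 0.792 for Mrps18c to 0.850 for Cd9. The 3 that entered were Mrps18c, Cd48, a leukocyte surface protein (0.807), and Ctsl, a cathepsin of the lysosomal list (0.805).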

How the data were processed

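mRNA libraries were made with the TruSeq stranded kit, per the labels' protocols. The tools in the submitters' processing notes are StringTie 2.1.3b, HISAT2 2.1.0 and edgeR 3.40.2, with no role given, and the genome build is not given in the sources used here. The authors deposited 1 table of values per organ, read here as FPKM, for 45777 genes and 1 column per library. The headers name no unit, which was inferred from the values' range and sums, so counts and depth are unknown and no counting error is given. Summed FPKM ran from 356725 to 1004889 per library. A column equal to another organ's was dropped.

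Each organ was fitted with limma 3.58.1 (R 4.3.3; trend, robust) on log2(FPKM + 1), a scale that understates changes of low genes, for genes averaging at least 1 FPKM, with Benjamini-Hochberg adjustment over all genes tested and calls at an adjusted p under 0.05. Organ contrasts and interactions used 1 fit over 15 libraries, taken as independent although some may share an animal. Median-ratio scaling divides a library by its median ratio to the geometric mean of the libraries fitted. Scripts were tested on simulated data. All 9 genes are named for each organ's doses. The rule names up to 4 called genes from each list by smallest p; Ctsl, and Psmb8 against BKC50, were named beyond it, after their values were seen. The scalings of the list counts and of the correlation ranking, the naming style term for the BKC100 heart and the alternatives for Coro1a were added after seeing the data. The genes, lists and tests were chosen with earlier results of these data known. RT1-DOa, RT1-Db2, RT1-Ha and Btnl2, other class II locus genes, were under the filter in every comparison. Promoters are from RefSeq (GRCr8).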

Additional observations from a re-analysis of the deposited data

Results flagged for a closer look

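3 class II genes had opposite directions at BKC100 in 2 organs. Every BKC100 adrenal lay under both vehicle adrenals and the single BKC100 heart above both vehicle hearts. Among all genes tested, 47.5% were apart lower in the adrenal gland and 37.7% apart higher in the heart at BKC100. The RT1-DMa groups were barely apart in the adrenal gland, with 6.39 FPKM at BKC100 against 6.45 FPKM in vehicle. RT1-Ba had a log2 change of 1.25 in the heart (SE 0.74) and -1.30 in the adrenal gland (SE 0.30). RT1-Da had 0.54 in the heart (SE 0.26) and -0.71 in the adrenal gland (SE 0.30), and RT1-DMa had 0.33 in the heart (SE 0.26) and -0.41 in the adrenal gland (SE 0.28). The difference between the organs was not tested, and the heart library is the one with atrial markers.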

How the results depend on the processing

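The counts of called genes that moved were these. For adrenal BKC100 against vehicle the 2 calls became 0 with no filter on low values, under median-ratio scaling, after quantile normalization and when protein-coding sums were made equal, and 1 (RT1-Bb) with the replicate number as a block; leaving out a library gave 0 to 3. For adrenal BKC100 against BKC50 the 1 call became 0 under the same 4 settings and 0 to 2 when a library was left out. For the BKC100 heart, class II genes were called with the replicate block or the naming style as a term, and against vehicle also with a library left out. The block sets the BKC100 heart, of the second naming style, beside first-style hearts. All these fits rest on that single BKC100 library, so no counts are given for them. The replicate numbers do not pair libraries. Differences between replicates 1 and 2 correlated at -0.15, -0.10 and 0.14 between adrenal groups, at 0.74 in heart, where they follow the naming style, and at 0.42 in pancreas. The other 120 counts stayed within 1.5 times.

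Adrenal calls split into 1004 lower and 226 higher as deposited, 165 and 232 after quantile normalization and 148 and 279 at equal protein-coding sums. Signs turned for values near 0. Under median-ratio scaling, quantile normalization and equal protein-coding sums, adrenal BKC50 changes were 0.09, 0.03 and 0.01 for RT1-Da and 0.09, 0.10 and 0.01 for RT1-Db1, the adrenal BKC100 change of Cd74 was 0.29, 0.28 and 0.26, and the pancreas change of Cd74 was 0.06, 0.07 and 0.07. RT1-DMb at adrenal BKC100 was 0.04 under median-ratio scaling and 0.01 at equal protein-coding sums, and RT1-Db1 at heart BKC100 was 0.08 at equal protein-coding sums and 0.14 with the naming style. Ranges when a library was left out were, for adrenal BKC50, RT1-Da -0.51 to 0.46, RT1-Db1 -0.48 to 0.45, RT1-DMa -0.11 to 0.32, RT1-DOb -0.73 to 0.05 and Cd74 -0.01 to 0.55. For adrenal BKC100 Cd74 ran from -0.14 to 0.07 against vehicle and RT1-DOb from -0.57 to 0.21 against BKC50. For heart BKC50 RT1-Ba ran from -0.95 to 0.65, RT1-Db1 from -0.60 to 0.38, RT1-DMa from -0.28 to 0.13, RT1-DMb from -0.28 to 0.38 and Cd74 from -0.19 to 0.18, and for heart BKC100 RT1-Db1 from -0.64 to 0.35. For pancreas Cd74 ran from -0.54 to 0.48 and RT1-Da from -0.64 to 0.67, and the BKC50 difference of RT1-Ba between adrenal and heart from -1.14 to 0.46. A group left with 1 library was assumed to vary like the others. The cause of these moves was not tested.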
